A study of Mus musculus with 9 samples.

Results

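The genes described here are 10 genes of complement and of the disease-associated state of microglia, the resident macrophages of the brain: C1qa, C1qb, C1qc, C3, Trem2, Tyrobp, Apoe, Cd68, Lyz2 and Ctss. They were chosen by name, as the transcripts of the deposited table whose RefSeq identifiers map to these symbols. The 10 genes were covered by 16 transcripts, out of 33299 transcripts and 23798 genes in the table. RNA was sequenced from 9 mouse brain libraries in a series whose title concerns alpha-synuclein made by neurons and its effects in oligodendrocytes, the myelinating glia. The groups, with 3 libraries each, were mice of genotype TG treated with NM-101, TG mice treated with placebo, and wild-type (WT) mice treated with placebo. The TG genotype was thus shared by the NM-101 group and its placebo control, and placebo was shared by the TG and WT controls. The labels do not say what TG carries, which promoter drives it, what NM-101 is, or the age of the mice. They name the tissue as brain and the cell type as oligodendrocyte, and the RNA came from a kit for fixed, paraffin-embedded material.

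C1q is made of A, B and C chains, each encoded by its own gene, and starts the classical complement pathway when it binds to immune complexes, dying cells or synapses. C3 is the protein on which all complement pathways converge, and its fragments tag material for uptake. Trem2 is a lipid-sensing receptor of microglia that signals through the adaptor Tyrobp, and microglia around dying neurons or protein deposits raise Apoe and lysosomal genes in a programme that partly needs Trem2. In healthy brain, microglia are the main source of C1q, Trem2, Tyrobp and Ctss, whereas most Apoe comes from astrocytes.

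The 3 C1q genes lie side by side on chromosome 4 (GRCm38): C1qb at 136880126 to 136886200, C1qc at 136889801 to 136892936 and C1qa at 136895916 to 136898844. Promoter windows of 300 bases, from RefSeq on GRCm38.p6, are shown for the neighbours C1qb and C1qc, for Ctss as a lysosomal member that was higher in the NM-101 libraries, and for Trem2 as the member that was not. Each line runs 5′ to 3′ on the gene's strand, and capitals mark GAGGAA or its reverse complement TTCCTC, the core letters bound by the myeloid factor PU.1. The windows are chr4:136886151-136886450 (minus strand) for C1qb, chr4:136892865-136893164 (minus) for C1qc, chr3:95526536-95526835 (plus) for Ctss and chr17:48346151-48346450 (plus) for Trem2.
C1qb: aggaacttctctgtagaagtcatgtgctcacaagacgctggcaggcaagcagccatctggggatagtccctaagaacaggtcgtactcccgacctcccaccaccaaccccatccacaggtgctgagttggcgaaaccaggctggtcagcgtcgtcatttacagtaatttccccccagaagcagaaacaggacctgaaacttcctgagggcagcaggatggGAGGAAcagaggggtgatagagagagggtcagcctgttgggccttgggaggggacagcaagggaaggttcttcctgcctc
C1qc: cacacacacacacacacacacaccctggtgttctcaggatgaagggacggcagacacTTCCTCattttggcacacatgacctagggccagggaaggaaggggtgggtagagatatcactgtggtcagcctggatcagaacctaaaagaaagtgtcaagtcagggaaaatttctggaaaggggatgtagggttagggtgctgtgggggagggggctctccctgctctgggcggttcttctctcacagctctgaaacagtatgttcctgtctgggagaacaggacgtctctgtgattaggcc
Ctss: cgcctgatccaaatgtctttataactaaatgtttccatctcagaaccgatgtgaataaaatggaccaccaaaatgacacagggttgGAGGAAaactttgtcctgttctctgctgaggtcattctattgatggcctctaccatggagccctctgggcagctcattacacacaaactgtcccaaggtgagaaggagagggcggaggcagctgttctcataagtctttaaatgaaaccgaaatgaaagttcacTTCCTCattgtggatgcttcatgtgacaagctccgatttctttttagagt
Trem2: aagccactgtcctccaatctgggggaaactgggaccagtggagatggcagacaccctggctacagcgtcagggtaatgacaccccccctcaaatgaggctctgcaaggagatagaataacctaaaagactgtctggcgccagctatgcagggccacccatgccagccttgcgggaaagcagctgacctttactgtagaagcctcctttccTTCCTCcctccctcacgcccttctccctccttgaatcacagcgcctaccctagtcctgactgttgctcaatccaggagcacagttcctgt
The match began 30 bases before the start site in C1qb, 193 bases before it in C1qc, 40 bases before it in Trem2, and 164 bases before it in Ctss, which held a further match at its start. Among 8 of the 10 genes with a promoter in the RefSeq table, 6 held these letters on either strand in any of their windows. C3 and Lyz2 did not. Of 32851 promoters 28.3% held them, a share per window and not per gene, and Apoe had several windows. The E-box CACGTG was in 0 of these 8 genes and in 7.15% of all promoters. A match is a description of the letters in the window and not a measured binding site.

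The deposited values come in different units. The WT columns hold counts, with library totals of 10612290, 14041951 and 11774367. The TG columns hold log2 values that follow the WT counts and transcript length as log2(FPKM + 1) would, a reading taken from the values. FPKM is a read number divided by the length of the transcript and by the depth of the library. Steps in the low TG values imply 9160000 to 12660000 reads in the NM-101 libraries and 10180000 to 12940000 reads in the TG placebo libraries. For display, WT counts were divided by library total and transcript length and written as log2(RPKM + 1), called rebuilt WT levels below. TG and WT values were normalized separately, so no test was made between them, whereas TG NM-101 and TG placebo were compared with limma over 12699 genes.

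In cell-type markers, the libraries did not look like oligodendrocytes alone. The neuronal gene Snap25 averaged 10.08 ± 0.08 in TG NM-101 and 10.06 ± 0.18 in TG placebo on the log2(FPKM + 1) scale (SD, n = 3 each), and all of 12 neuronal, 12 astrocyte and 15 homeostatic microglia markers passed the filter on low values. The myelin gene Mbp was at 11.25, 10.36 and 10.85 in TG NM-101, and at 11.62, 9.98 and 9.93 in TG placebo. TG placebo library 1 stood apart from the other TG placebo libraries in its oligodendrocyte markers, with a median level of 6.59 over 12 genes, against 5.33 and 5.18. Values without this library are given beside those that it moves most. In bulk libraries such as these, fewer cells of a type and less RNA per cell cannot be told apart. The labels do not say that libraries came from separate animals, so the p-values measure the spread between these libraries only.

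Across the 10 genes, TG NM-101 values were mostly above TG placebo values by a small amount, and none of the differences passed the test. The median difference over the 10 genes was 0.31 on the log2 scale, with 9 genes higher and 1 lower. Over all genes tested the median was 0.03 and 55.5% were higher. Against the mean of TG placebo, the median over the 10 genes was 0.29, 0.33 and 0.28 in NM-101 libraries 1, 2 and 3, so no single NM-101 library set it. With limma and Benjamini-Hochberg adjustment over all genes, 17 genes had an adjusted p under 0.05, which is 0.134% of those tested, and 0 of the 9 members tested were among them. At an unadjusted p under 0.05, 4 of the 9 were higher (C1qa, C1qb, Tyrobp and Ctss), where 10.7% of all genes tested were. In 5 of the 10 genes (C1qa, C1qb, C3, Tyrobp and Ctss) every NM-101 library was above every TG placebo library, and 13.6% of all genes tested were higher with no overlap in this way.

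**Figure D1:**
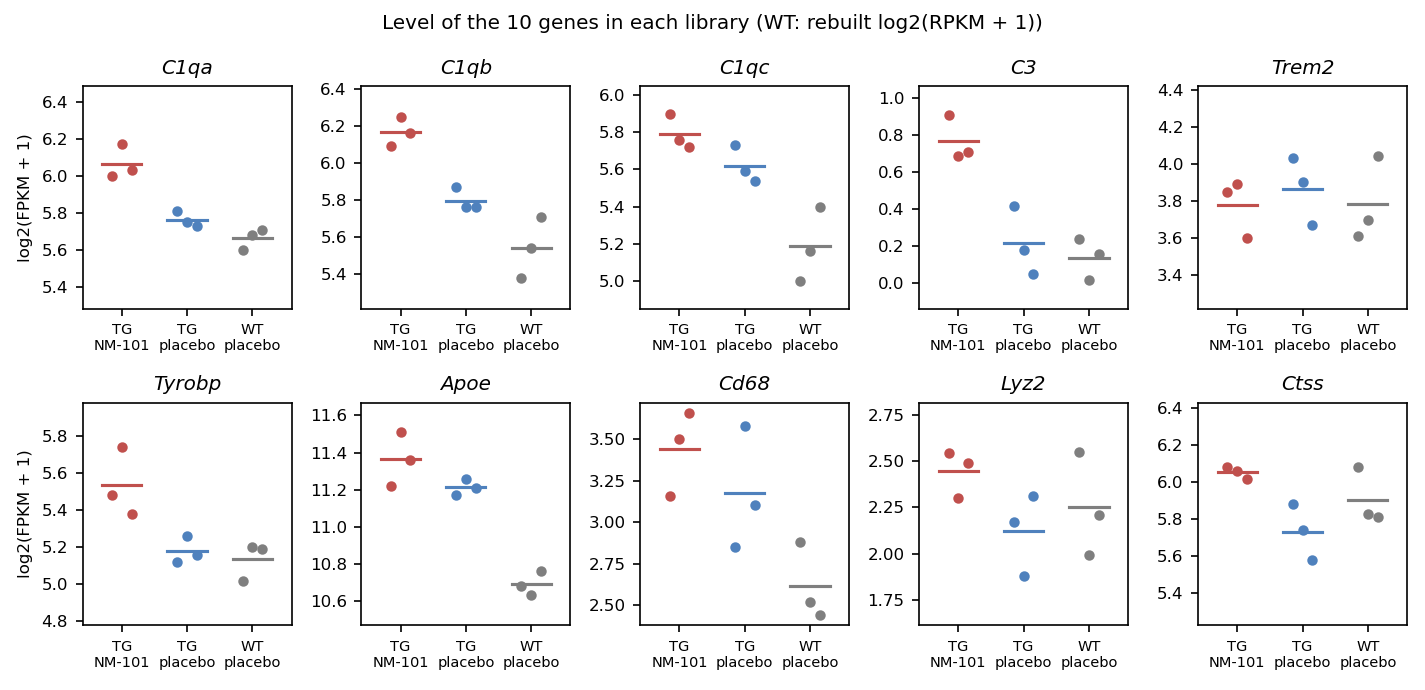
Level of each of the 10 genes in every library, with the log2(FPKM + 1) level on the vertical axis, points for libraries and lines for group means (n = 3). WT levels are rebuilt from counts. C1qa, C1qb, C3, Tyrobp and Ctss show all TG NM-101 points above all TG placebo points, and Apoe shows both TG groups above WT.

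The chains of C1q were among the most abundant members after Apoe. C1qa, the A chain, was at 6.00, 6.17 and 6.03 in TG NM-101, at 5.81, 5.75 and 5.73 in TG placebo, and at rebuilt levels of 5.60, 5.68 and 5.71 in WT placebo. The NM-101 libraries were the highest, and neither TG group overlapped the other or WT. Between TG placebo and WT the gap was only 5.73 against 5.71, in values normalized separately, so that separation is not secure. The difference between TG NM-101 and TG placebo was 0.30 (SE 0.09, 95% interval 0.10 to 0.50), or 1.23-fold on this scale, with a limma adjusted p of 0.181. The WT counts behind the rebuilt levels of C1qa were 526, 733 and 628, or 51.7 ± 1.93 when scaled to CPM (SD, n = 3).

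C1qb, the B chain, was at 6.09, 6.25 and 6.16 in TG NM-101, at 5.87, 5.76 and 5.76 in TG placebo, and at 5.38, 5.54 and 5.71 in rebuilt WT levels. The 3 groups did not overlap in these values, with NM-101 at the top and WT at the bottom. The gap between TG placebo and WT was narrow, 5.76 against 5.71, in values normalized separately, so that lower step is not secure. The NM-101 minus placebo difference in TG was 0.37 (SE 0.09, 95% interval 0.17 to 0.57), or 1.29-fold, and its limma adjusted p of 0.125 was the lowest of the 9 members tested.

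C1qc, the C chain, was at 5.90, 5.76 and 5.72 in TG NM-101, at 5.73, 5.59 and 5.54 in TG placebo, and at rebuilt WT levels of 5.00, 5.16 and 5.40. Here 1 NM-101 library lay just below the highest TG placebo library, so these groups overlapped, while both TG groups were above all WT libraries. The difference in TG was 0.17 (SE 0.10, 95% interval −0.04 to 0.39; limma adjusted p = 0.419).

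The balance between the chains was measured within each library, where the total number of reads drops out. The log2 ratio of C1qb to C1qa was 0.09, 0.08 and 0.13 in TG NM-101, 0.06, 0.01 and 0.03 in TG placebo, and −0.23, −0.14 and 0.00 in WT. The TG groups thus held the B chain at or just above the A chain, and WT libraries held it at or below. The log2 ratio of C1qc to C1qa was −0.11, −0.41 and −0.32 in TG NM-101, −0.08, −0.17 and −0.19 in TG placebo, and −0.62, −0.53 and −0.31 in WT. The groups overlapped in TG for this ratio. Of 7 ratios computed among the members, none can reach an exact two-sided permutation p under 0.1 with 3 libraries against 3, and the WT ratios also carry the rebuilt lengths.

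C3, the convergence point of the complement pathways, was the lowest of the 10 genes. It was at 0.91, 0.69 and 0.71 in TG NM-101, at 0.42, 0.18 and 0.05 in TG placebo, and at 0.24, 0.02 and 0.16 in rebuilt WT levels, where it had 10, 1 and 7 counts. All NM-101 libraries were above all others, and TG placebo overlapped WT. On the linear scale and multiplied by transcript length, this corresponds to 4.50, 3.14 and 3.27 RPM (reads scaled to a common depth) in TG NM-101. In TG placebo it corresponds to 1.73, 0.678 and 0.163 RPM. The means were 3.64 ± 0.75 in TG NM-101 and 0.856 ± 0.797 in TG placebo (SD, n = 3 each), a ratio of 4.25 on the linear scale. That ratio was 8.65 without TG placebo library 1 and 3.03 without TG placebo library 3. With the depth that the low values imply, it rests on about 30 to 57 reads in each NM-101 library and 1.9 to 17.6 in each TG placebo library.

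C3 did not reach the mean level of 1 required for the test. In a fit without that filter its difference was 0.56 (SE 0.12, 95% interval 0.27 to 0.84), with an unadjusted p of 0.00227 and a limma adjusted p of 0.198. In that fit 0.0214% of 18715 genes had an adjusted p under 0.05, and C3 was not one of them. The pseudocount of 1 makes the log2 difference of a gene at this level smaller than its ratio on the linear scale.

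**Figure D2:**
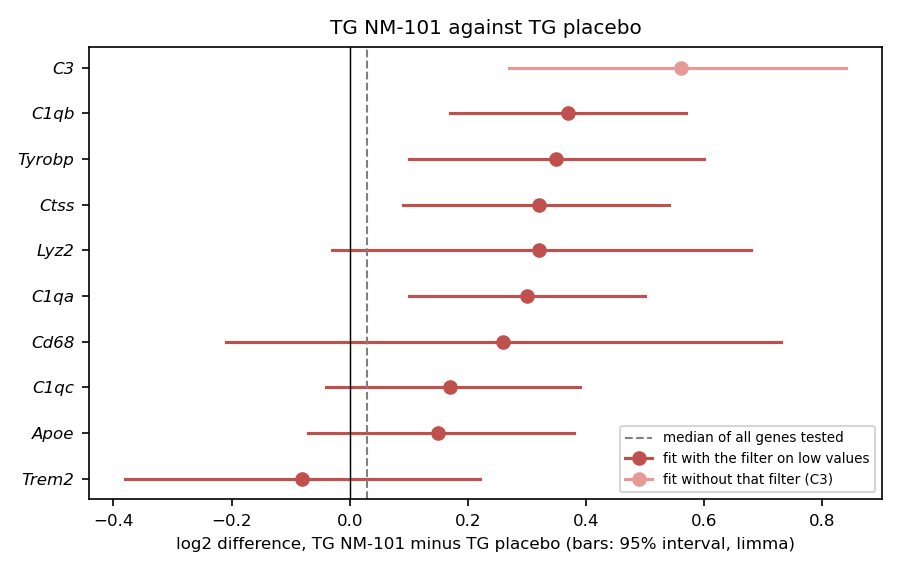
Difference between TG NM-101 and TG placebo for each gene on the horizontal axis (log2 scale), with points for the limma estimate and bars for the 95% interval (n = 3 each). The intervals of Trem2, C1qc, Apoe, Cd68 and Lyz2 span 0, and those of C1qa, C1qb, Tyrobp, Ctss and C3 do not. The dashed line marks the median of all genes tested at 0.03.

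Trem2 and its adaptor Tyrobp differed from each other between the TG groups. Trem2, the receptor, was at 3.85, 3.89 and 3.60 in TG NM-101, at 4.03, 3.90 and 3.67 in TG placebo, and at 3.61, 3.70 and 4.04 in rebuilt WT levels. All 3 groups overlapped, and Trem2 was the only one of the 10 genes with a lower mean in TG NM-101 than in TG placebo. Its difference was −0.08 (SE 0.13, 95% interval −0.38 to 0.22; limma adjusted p = 0.8). That interval leaves room for differences of either sign.

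Tyrobp, the signalling adaptor also used by other myeloid receptors, was at 5.48, 5.74 and 5.38 in TG NM-101, at 5.12, 5.26 and 5.16 in TG placebo, and at 5.02, 5.20 and 5.19 in rebuilt WT levels. Every NM-101 library was above all others, and the TG placebo and WT libraries overlapped. The difference in TG was 0.35 (SE 0.11, 95% interval 0.10 to 0.60), or 1.27-fold, with a limma adjusted p of 0.219. Within libraries, the log2 ratio of Tyrobp to Trem2 was 1.69, 1.92 and 1.86 in TG NM-101, 1.15, 1.43 and 1.57 in TG placebo, and 1.49, 1.58 and 1.20 in WT. The NM-101 libraries had the 3 highest ratios, above both other groups, and the smallest exact two-sided permutation p that 3 against 3 allows is 0.1.

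**Figure D3:**
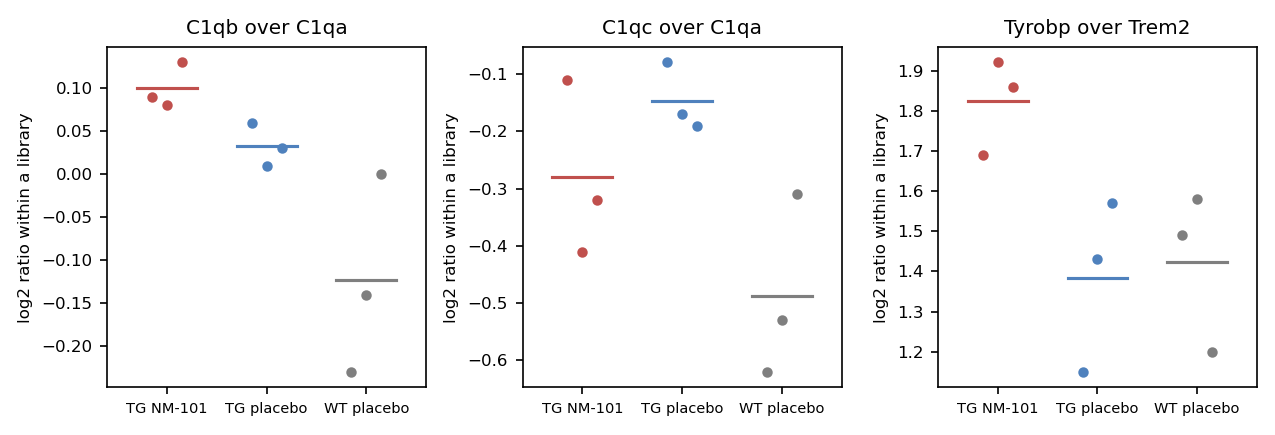
Log2 ratios within each library of C1qb to C1qa, C1qc to C1qa and Tyrobp to Trem2 on the vertical axis, with points for libraries and lines for group means (n = 3). The Tyrobp to Trem2 ratio is 1.69 to 1.92 in TG NM-101, above TG placebo and WT, and the C1qc to C1qa ratio overlaps between the TG groups.

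Apoe, the main lipid carrier of the brain, was the most abundant member in every group. It was at 11.22, 11.51 and 11.36 in TG NM-101, at 11.17, 11.26 and 11.21 in TG placebo, and at 10.68, 10.63 and 10.76 in rebuilt WT levels. NM-101 and placebo overlapped in TG, and both were above every WT library. The difference between TG NM-101 and TG placebo was 0.15 (SE 0.10, 95% interval −0.07 to 0.38; limma adjusted p = 0.493). In WT, Apoe had 24273, 31371 and 27977 counts.

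The table lists 4 Apoe transcripts, and the summed level rested on 1 of them. NM_009696 was at 11.21, 11.50 and 11.36 in TG NM-101 and at 11.05, 11.23 and 11.17 in TG placebo. NM_001305844 was at 3.43, 4.58 and 0 in TG NM-101 and at 7.33, 5.34 and 5.89 in TG placebo, and it had 875, 277 and 4606 counts in WT. It was thus lower in all NM-101 libraries than in all TG placebo libraries, but its counts ranged widely among the WT libraries as well. NM_009696 and NM_001305844 are 48.6% identical over the last 300 bases. NM_001305843 is linked to the same annotated transcript as NM_009696, and NM_001305819 to the same one as NM_001305844. How reads were divided between transcripts that share sequence is not given in the sources used here, so the levels of single Apoe transcripts are uncertain.

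**Figure D4:**
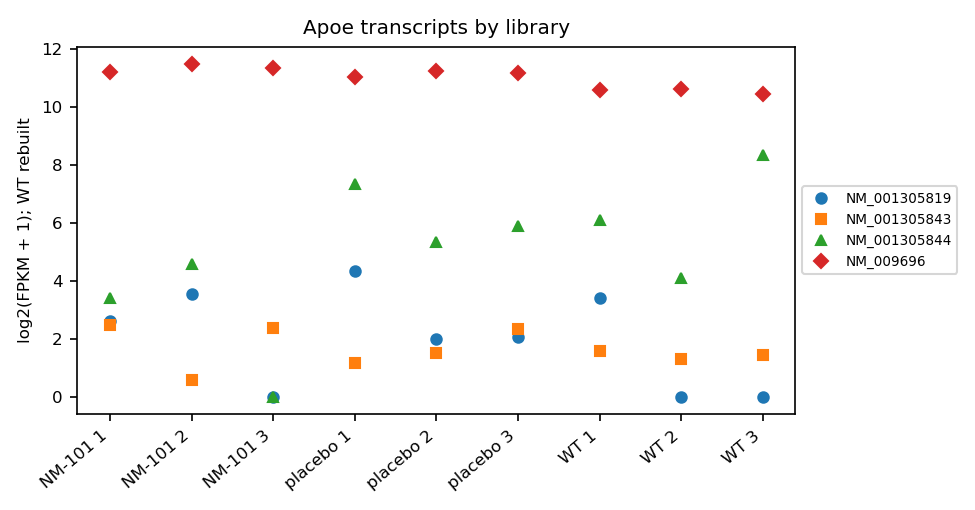
Level of each of the 4 Apoe transcripts in all 9 libraries, with log2(FPKM + 1) on the vertical axis and WT rebuilt from counts. NM_009696 lies above 10 in all libraries, and NM_001305844 ranges from 0 to 8.33.

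The lysosomal members were Cd68, Lyz2 and Ctss. Ctss, encoding cathepsin S, a protease of antigen-presenting cells, was at 6.08, 6.06 and 6.02 in TG NM-101, at 5.88, 5.74 and 5.58 in TG placebo, and at 6.08, 5.83 and 5.81 in rebuilt WT levels. The NM-101 libraries were close together and above all TG placebo libraries, but both groups overlapped WT. This summed level rested on NM_021281, at 6.05, 6.05 and 5.96 in TG NM-101 and 5.73, 5.67 and 5.44 in TG placebo. The less abundant NM_001267695 went the other way, at 1.09, 0.88 and 1.86 in TG NM-101 and 2.77, 1.91 and 2.44 in TG placebo. The difference in TG was 0.32 (SE 0.10, 95% interval 0.09 to 0.54), or 1.25-fold, with a limma adjusted p of 0.206.

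Cd68, a glycoprotein of macrophage lysosomes, was at 3.16, 3.50 and 3.66 in TG NM-101, at 2.85, 3.58 and 3.10 in TG placebo, and at 2.88, 2.52 and 2.44 in rebuilt WT levels. The TG groups overlapped each other, while all NM-101 libraries were above WT. Its difference in TG was 0.26 (SE 0.21, 95% interval −0.21 to 0.73; limma adjusted p = 0.567), the widest interval of the 10 genes. Lyz2, lysozyme of myeloid cells, was at 2.54, 2.30 and 2.49 in TG NM-101, at 2.17, 1.88 and 2.31 in TG placebo, and at 2.55, 1.99 and 2.21 in rebuilt WT levels. These groups overlapped, and the difference in TG was 0.32 (SE 0.16, 95% interval −0.03 to 0.68; limma adjusted p = 0.377). The neighbouring paralog Lyz1 is 93.8% identical over the last 300 bases of the transcript and was listed at 0.10 to 0.14 in TG NM-101 and 0 to 0.10 in TG placebo, so the split of reads between the pair is uncertain.

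The calls depended on TG placebo library 1. Without it, 2269 genes had a limma adjusted p under 0.05, 17.9% of those tested, and 3 of the members did. The adjusted p was then 0.033 for C1qa (difference 0.32), 0.013 for C1qb (difference 0.41) and 0.0159 for Ctss (difference 0.39). The median difference over the 10 genes was 0.32 without it, and 6 of the 10 genes, C1qc added, then had separate groups, as did 28.1% of all genes tested in the higher direction. Cd68 moved most, with a difference of 0.10 without this library and a range of 0.10 to 0.47 over all alternatives, and Trem2 was at 0.00. In the order of levels per length, the members kept a similar sequence in all groups, with Apoe first, then C1qb, C1qa, Ctss, C1qc and Tyrobp, and then Trem2, Cd68, Lyz2 and C3. In WT, Ctss was second, ahead of C1qa. Neighbours in this order did not differ beyond their spread among C1qb, C1qa and Ctss, between C1qc and Tyrobp, or between Trem2 and Cd68 in TG NM-101. The same held among C1qb, C1qa, Ctss and C1qc in TG placebo, and among C1qa, C1qb, C1qc and Tyrobp and between Cd68 and Lyz2 in WT. The QuantSeq kit reads transcripts at the 3′ end, so a level divided by length sets a short transcript such as that of Tyrobp higher than a level not divided by length would.

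TG placebo was compared with WT placebo by description only. The median difference over the 10 genes was 0.09, with 8 higher and 2 lower, and over 12410 genes with a length it was 0.05 with 56.4% higher. Against the WT mean, the median over the 10 genes was 0.24, 0.12 and 0.06 in TG placebo libraries 1, 2 and 3. It was 0.17 without TG placebo library 3 or without WT library 3, and 0.18 with a pseudocount of 0.1. With median-ratio scaling over the 9 libraries it was 0.06, so its size is not well fixed. In 4 of the 10 genes every TG placebo library was above every WT library: C1qa (0.10), C1qb (0.25), C1qc (0.43) and Apoe (0.52). For C1qa the lowest TG placebo library was at 5.73 and the highest WT library at 5.71, and for C1qb at 5.76 and 5.71. The median-ratio factors were 0.963 for WT library 3, and 1.019 and 1.023 for TG placebo libraries 2 and 3. Division by these factors closes the gaps of C1qa and C1qb, so their separation depends on the scaling. Of all genes, 20.8% were higher and 15.9% lower with no overlap, so the 4 genes are read against a large background. Cd68 was higher by 0.56, with overlapping groups, and Ctss and Lyz2 had differences of −0.17 and −0.13.

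Between TG NM-101 and WT placebo, the median difference over the 10 genes was 0.50, against 0.05 over all genes, with 10 higher and 0 lower. In 7 of the 10 genes the groups did not overlap: Cd68 (0.83), Apoe (0.68), C3 (0.63), C1qb (0.62), C1qc (0.60), C1qa (0.40) and Tyrobp (0.39). Of all genes, 23.5% were higher and 13.1% lower with no overlap. These 3 comparisons share libraries, so for C1qc, for example, the NM-101 minus placebo value was 0.17, the placebo minus WT value 0.43 and the NM-101 minus WT value 0.60. In these values the larger step was placebo over WT for C1qc, Apoe and Cd68, and NM-101 over placebo for C1qa, C1qb, C3 and Tyrobp. The placebo over WT step also carries the separate normalization and the rebuilt lengths, so these steps are not measured alike. As examples outside the members, mean Slc1a2 was 8.24 in TG placebo and 10.63 in rebuilt WT, and mean Olfml3 was 3.31 and 2.21.

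Transcript length moved with these differences. Among genes with 1 transcript, the median difference between TG NM-101 and TG placebo was 0.34 for 87 genes up to 500 bases, 0.19 for 554 genes of 500 to 1000 bases, 0.08 for 895 genes of 1000 to 1500 bases and 0.01 for 2971 genes of 1500 to 3000 bases. It was 0.03 for 3127 genes of 3000 to 6000 bases, the class of C3, and 0.05 for 1029 longer genes. Between TG NM-101 and WT placebo the 6 classes had medians of 0.77, 0.31, 0.11, 0.03, 0.07 and 0.18 from the shortest to the longest, so the longest genes did not continue the decline. Apart from C3 at 5136 bases, the transcripts of the members run from 564 bases (Tyrobp) to 1408 bases (Apoe). The part of length in the members' differences was not tested.

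The other genes of these pathways came from lists chosen by function, in which Siglech, Itgax, Clu, Vtn and Stab1 each stand more than once. Of 15 homeostatic microglia genes, which mark microglia at rest, 14 were higher in TG NM-101 than in TG placebo and 1 lower, with a median of 0.35 and 0 with a limma adjusted p under 0.05. Without TG placebo library 1 the median was 0.27 and 5 of the 15 were called, where 17.9% of all genes tested were. The differences were 0.67 for Gpr34 and 0.56 for P2ry13, with limma adjusted p of 0.105 and 0.134. Their summed level, most of it from Cst3, which other brain cells express too, was 3120 to 3250 FPKM in TG NM-101 and 2290 to 2770 FPKM in TG placebo. The median level of the members minus that of these 15 genes was 1.64, 2.06 and 1.90 in TG NM-101 and 1.87, 1.66 and 1.82 in TG placebo, so the groups overlapped. The members and the markers of resting microglia thus lay higher in TG NM-101 by similar amounts.

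Other genes of the disease-associated programme had a median that rested on single libraries. Of 20 such genes, 17 were tested, of which 12 were higher and 5 lower, with a median of 0.08 and 0 called. Without TG placebo library 1 that median was 0.23, near those of the members and of the homeostatic genes. It was −0.02 without TG placebo library 3. Of the 17 genes, 3 were called without TG placebo library 1, near the share of 17.9% of all genes tested. The genes that moved with library 1 included Cd9, at 0.03 with it and 0.33 without it, and Fth1, encoding a ferritin chain, at 0.60 with it and 0.91 without it. With all libraries, B2m, of class I antigen presentation, differed by 0.23, Hif1a by 0.26 and Spp1, encoding osteopontin, by 0.35, with limma adjusted p of 0.282, 0.283 and 0.315. Cst7, Clec7a and Itgax, defining genes of that state, were below the filter. Cst7 was at 0.14, 0.28 and 0 in TG NM-101 and at 0.43, 0.46 and 0.14 in TG placebo. Clec7a was at 0.16, 0.27 and 0.28 in TG NM-101 and at 0.19, 0.10 and 0.17 in TG placebo. Itgax was at 0 in 1 library of each TG group. Without the filter, Cst7 differed by −0.21, Clec7a by 0.08 and Itgax by −0.04, all with overlapping groups.

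In the rest of complement, 24 of 25 listed genes were in the table and 10 were tested, with 7 higher, 3 lower, 0 called and a median of 0.06. Clu, encoding clusterin, an inhibitor of the terminal complex, differed by 0.27, Cfp, encoding properdin of the alternative pathway, by −0.98, and Vtn, encoding vitronectin, by −0.32, with limma adjusted p of 0.212, 0.318 and 0.505. C4b, which acts between C1q and C3, was at 3.15, 2.99 and 2.71 in TG NM-101 and at 2.70, 3.02 and 2.83 in TG placebo, with overlapping groups. Cfd, C6 and C9 were listed at 0 in all TG libraries. Of 11 complement receptors 4 were tested, with 2 higher and 2 lower, 0 called and a median of 0.02, and their 3 smallest p-values belonged to Itgb2 (0.26), Calr (−0.02) and Itgam (0.04).

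Among partners of Trem2 and Tyrobp, 10 of 18 were tested, with 6 higher, 4 lower, 0 called and a median of 0.10, or −0.01 without TG placebo library 1. Spi1, encoding PU.1, was at 2.57, 2.46 and 2.42 in TG NM-101 and at 2.11, 2.24 and 2.16 in TG placebo. These groups did not overlap, and the difference was 0.32 with a limma adjusted p of 0.301. The kinase subunit Pik3cd differed by −0.33 and the phosphatase Inpp5d by 0.29. Of 23 genes of Fc receptors and phagocytosis 18 were tested, with 13 higher, 5 lower, 0 called and a median of 0.20. Without TG placebo library 1 their median was 0.30 with 5 of the 18 called, where 17.9% of all genes tested were. Fcer1g, an adaptor that like Tyrobp carries an activation motif, differed by 0.36, the integrin Itgav by 0.34 and the receptor Fcgr3 by 0.41, with limma adjusted p of 0.218, 0.232 and 0.251. Of 12 genes of apolipoproteins and lipid efflux 11 were tested, with 6 higher, 5 lower, 0 called and a median of 0.03, among them Abca1 (0.38) and Apoc1 (0.82).

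**Figure D5:**
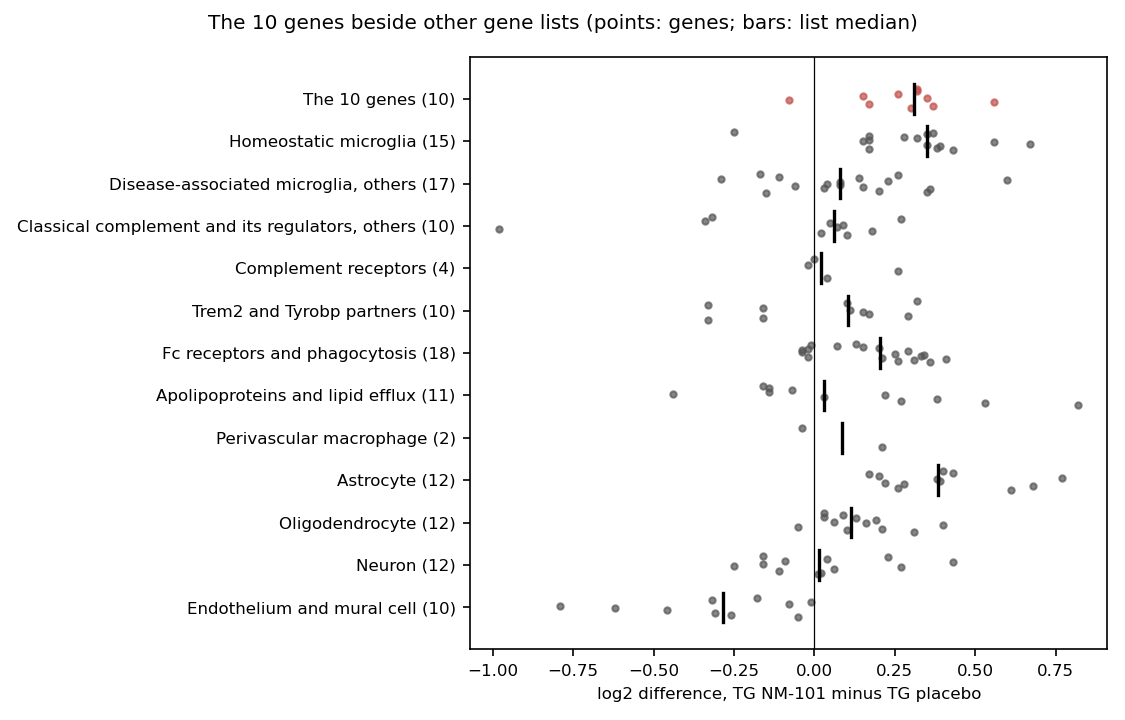
Difference between TG NM-101 and TG placebo (log2 scale, horizontal axis) for each tested gene of the 10 members and of 12 other lists, with a bar at each list's median and the number of genes in brackets; C3 comes from the fit without the filter. The medians of the members (0.31), homeostatic microglia (0.35) and astrocytes (0.39) lie highest, and the endothelial one (−0.29) lowest.

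Markers of other cell types were read beside these results. Astrocyte markers were higher in TG NM-101 in 12 of 12 genes, with a median of 0.39 and a summed level of 2600 to 2740 FPKM in TG NM-101 and 1980 to 2100 FPKM in TG placebo. Sox9, a factor of astrocytes, rose by 0.77 (SE 0.10, limma adjusted p = 0.0425), at 4.62, 4.54 and 4.61 in TG NM-101 and 3.88, 3.89 and 3.70 in TG placebo. The call of Sox9 was lost in 9 of 12 alternatives, with a limma adjusted p of 0.00128 to 0.351, while its difference ran from 0.71 to 0.81. Slc1a2 differed by 0.68 (limma adjusted p = 0.0561) and Aldoc by 0.38 (limma adjusted p = 0.117). Endothelial and mural markers were lower in 10 of 10 genes, with a median of −0.29, 0 called and summed levels of 77.3 to 83.8 FPKM in TG NM-101 and 84.3 to 114 FPKM in TG placebo. Their 3 smallest p-values were those of Igfbp7 (−0.79), Ly6a (−0.62) and Slco1a4 (−0.46). Neuronal markers had a median of 0.01 (7 higher, 5 lower, 0 called), with Camk2a at 0.43, Gad2 at 0.23 and Nefm at −0.25 the 3 of smallest p. Oligodendrocyte markers had a median of 0.11 (11 higher, 1 lower, 0 called), and here Sox10 differed by 0.09, Mbp by 0.31 and Mobp by 0.40. Without TG placebo library 1 the oligodendrocyte median was 0.56 with 12 of 12 higher, 3 called and Mbp at 0.87. The endothelial median was then −0.45 with 9 of 10 lower and 5 called. Of all genes tested, 17.9% were called without that library. The part of astrocyte, oligodendrocyte and endothelial content in the members' differences was not tested.

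Markers of perivascular macrophages and of blood leukocytes were low or at 0. Of 10 perivascular macrophage genes 2 were tested, Pf4 (0.21) and Stab1 (−0.04), and 0 were called. The list summed to 4.24 to 6.32 FPKM in TG NM-101 and 3.43 to 5.10 FPKM in TG placebo. Of 10 monocyte and neutrophil genes 0 reached the filter, Ly6c2 and Camp were listed at 0 in all TG libraries, and the list summed to 1.26 to 3.38 FPKM in TG NM-101 and 0.693 to 1.58 FPKM in TG placebo.

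The members did not all follow the same course over the 6 TG libraries. Pearson's r with the mean of the 9 tested members is given as a description over libraries that also share their group. That mean includes each member itself, which raises the member's r, whereas genes outside the members are not in it. The r was 0.99 for C1qa, 0.98 for C1qb, 0.93 for Ctss, 0.92 for Tyrobp, 0.77 for C1qc and 0.75 for Apoe. It was 0.53 for Lyz2, 0.42 for Cd68 and 0.02 for Trem2. Outside the members, the 5 genes with the nearest course were Crh (0.991), Elp4 (0.988), Clu (0.987), Cep20 (0.987) and Abhd17c (0.986). So many genes had a like course, 340 of 12690 with r over 0.9, that closeness to it is not particular to any of these.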

How the data were processed

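Per the submitters' processing notes, reads were handled with Bowtie2 and the build mm10. Neither counter nor annotation nor normalization is given in the sources used here. In the table from the authors, WT columns hold whole-number counts per RefSeq transcript as deposited, and TG columns hold log2 values with no unit stated. Over 18307 transcripts the deposited log2 values had a slope of 1.008 on log2 WT CPM and −0.863 on log2 length, and between 82.9% and 85.6% of low values lay within 0.2 of a whole read. They were read as log2(FPKM + 1).

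Symbols came from RefSeq (GRCm38.p6), which named 97.3% of transcripts. Transcripts were summed per gene on the linear scale (pseudocount 1). Genes whose mean log2 value reached 1 were tested with limma 3.58.1 (R 4.3.3; variance trend, robust) on the 6 TG libraries, Benjamini-Hochberg adjusted, threshold 0.05, no covariate. The procedure was tested on simulated data, in which the added changes were larger than any difference of the members and no library stood apart. That simulation does not speak to differences of the members' size. WT levels used GENCODE M21 lengths. Counting error sets the precision of low genes. The members and lists were chosen with earlier results of these data known. All members are named, with the 3 smallest p-values per list, any called list gene, and the 5 genes nearest in course, except 1 gene that is not reported here. C4b, Clec7a, Cd9, Fth1, Itgax, Cst7, Snap25, Mbp, C5ar1, C3ar1, C1ra and Cfb were chosen after their values were seen. Alternatives were another pseudocount, filter, scaling, transcripts singly, no trend, the replicate block and leaving out each library.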

Additional observations from a re-analysis of the deposited data

How the results depend on the processing

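The number of genes with a limma adjusted p under 0.05, 17 between TG NM-101 and TG placebo, was 3 with the replicate block, 4 with no filter on low values, 4 with median-ratio scaling, 7 with each transcript by itself and 4 with no trend and no robust shrinkage, and it ran from 2 to 2269 when each library was left out in turn. Members called ran from 0 to 3 when libraries were left out, the 3 being without TG placebo replicate 1, and were 0 under all other alternatives run. The median difference over the members, 0.31, was 0.28 with median-ratio scaling and 0.25 to 0.32 when libraries were left out. The median TG NM-101 minus WT placebo difference was 0.43 with median-ratio scaling over the 9 libraries. Relative to homeostatic microglia genes the members differed by 0.08, and by −0.02 to 0.20 when libraries were left out; it was negative without NM-101 replicate 2. The difference of Trem2 ran from −0.18 to 0.01 when libraries were left out, with 0.01 without NM-101 replicate 3 and 0.00 without TG placebo replicate 1. When libraries were left out, which for the lists and the C3 ratio was chosen after seeing the data, list medians ran from −0.02 to 0.23 (disease-associated), −0.02 to 0.12 (complement), −0.03 to 0.14 (complement receptors), −0.01 to 0.12 (Trem2 and Tyrobp partners), −0.03 to 0.06 (apolipoproteins), −0.05 to 0.21 (perivascular macrophages), −0.09 to 0.56 (oligodendrocytes), −0.02 to 0.06 (neurons), 0.27 to 0.37 (homeostatic microglia), 0.14 to 0.30 (Fc receptors and phagocytosis), 0.29 to 0.42 (astrocytes) and −0.45 to −0.14 (endothelium). The C3 ratio ran from 3.03 to 8.65. The cause was not tested. Of 117 comparisons of single members under an alternative, 112 kept direction and side of the threshold. Same-numbered TG libraries correlated at 0.04, −0.03 and −0.02 in their deviations, so no pairing by number was seen. With 3 libraries per group such correlations cannot exclude pairing, and the blocked fit called 0 members. Depth limits C3 above all, with 1 count in a WT library.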

Other observations

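In some complement genes below the filter of the test the TG groups did not overlap, and these genes were picked after their values were seen. Of genes that passed the filter, 13.6% were higher with no overlap, and the share below the filter was not computed. C5ar1, the receptor of the fragment C5a, was at 1.08, 0.94 and 1.00 in TG NM-101 and at 0.45, 0.33 and 0.31 in TG placebo, with no overlap (difference 0.64 without the filter, limma adjusted p = 0.169). C3ar1, the receptor of the fragment C3a, was at 0.64, 0.99 and 1.12 in TG NM-101 and at 0.44, 0.55 and 0.56 in TG placebo, also with no overlap (difference 0.40, limma adjusted p = 0.371). C1ra, a protease of the C1 complex, was lower with no overlap, at 0.23, 0.36 and 0.49 in TG NM-101 and at 0.90, 0.60 and 0.69 in TG placebo (difference −0.37, limma adjusted p = 0.32). Cfb, of the alternative pathway, was also lower with no overlap but near 0, at 0.04, 0 and 0.06 in TG NM-101 and at 0.19, 0.26 and 0.21 in TG placebo (difference −0.19, limma adjusted p = 0.242). None of the 4 passed the test.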
